A study of Sus scrofa with 226 samples.

Results

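ATP1B1, ATP1B2 and ATP1B3 encode beta subunits of the sodium pump, and their transcripts were described across single neurons of the dorsal root ganglion of pigs, the sensory ganglion beside the spinal cord. The 3 genes were chosen by name from 30420 measured gene identifiers, of which 14867 could be paired with a gene symbol. ATP1B1 (ENSSSCG00000006296) and ATP1B2 (ENSSSCG00000017951) were identified. No identifier was paired with ATP1B3, which was not analysed here, so 2 of the 3 members have values. The neurons came from 10 wild-type pigs of 11, 12, 14, 15, 17, 18 or 20 weeks of age and had spent 1, 2 or 3 days in culture (78 cells of 9 animals at 2 days, 24 cells of 3 animals at 3 days, and the remaining cells, of all 10 animals, at 1 day). Each neuron was first recorded with a patch pipette, then drawn whole into a second pipette and sequenced by Smart-Seq2, a full-length method without molecular identifiers. The animal, not the cell, was taken as the replicate. Estimated counts summed to between 109726 and 5506278 per cell (median 740525), and 0 pairs of cells held identical values. The neuronal markers SNAP25, UCHL1, STMN2 and NEFL were at 0 in 0 cells. The neuronal markers TUBB3, ELAVL4, PRPH and RBFOX3 were at 0 in some cells.

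The sodium pump uses ATP to carry sodium out of a cell and potassium into it, and so maintains the gradients on which resting potential, firing and many carriers depend. An alpha subunit does the transport, and a beta subunit, a glycoprotein with a single membrane crossing, carries the alpha subunit to the membrane and tunes its affinity for potassium. In the nervous system ATP1B1 is widely expressed, and ATP1B2 is best known from glia, where it is also called AMOG, an adhesion molecule. In thin pain-sensing axons pump activity is a known contributor to the hyperpolarisation that follows prolonged firing.

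Cells were divided by 2 transcripts that are not members. OSMR, the oncostatin M receptor, marks itch-related C-fibre neurons, and ADCYAP1 encodes the neuropeptide PACAP, found in peptidergic pain-sensing neurons. A cell at or above 50 CPM (counts per 1e6 counts of the cell) in OSMR or ADCYAP1 was assigned to the higher of these, which gave 58 OSMR-high cells (25.7%), 19 other cells (8.41%) and the remaining 65.9% as ADCYAP1-high cells. These classes were made here from the data and are not groups given by the labels. Other peptidergic markers did not all follow ADCYAP1. TRPA1, KIT and GAL had higher medians in ADCYAP1-high cells. TAC1 had the higher median in OSMR-high cells (7528 CPM, against 4051 CPM in ADCYAP1-high cells), as had BDNF (2.53 and 1.79 CPM). NPPB, listed here with OSMR, had medians of 984 CPM in OSMR-high and 241 CPM in ADCYAP1-high cells. The class names therefore stand for OSMR and ADCYAP1 levels, and peptidergic markers were not limited to ADCYAP1-high cells. TUBB3 was at 0 in 9 ADCYAP1-high cells, 1 OSMR-high cell and 7 other cells, and RBFOX3 in 95, 46 and 14. The summed neuronal markers were lowest at 4756 CPM in ADCYAP1-high cells, 7790 CPM in OSMR-high cells and 850 CPM in other cells.

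ATP1B2 was measured mainly in the ADCYAP1-high cells. Its median was 0.288 CPM in OSMR-high cells, 0 CPM in other cells and 58.8 CPM in ADCYAP1-high cells. It reached 10 CPM in 3 of 58 OSMR-high cells (5.17%), in 2 of 19 other cells (10.5%) and in 73.2% of the ADCYAP1-high cells. The highest OSMR-high cell stood at 19.3 CPM, against 871 CPM for the highest ADCYAP1-high cell. No reads were assigned to ATP1B2 in 29 OSMR-high cells, 12 other cells and 26 ADCYAP1-high cells.

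The same difference was present animal by animal. Among animals with at least 2 cells of a class, the percentage of cells at or above 10 CPM of ATP1B2 had a lowest value of 0, a median of 0 and a highest value of 10 in OSMR-high cells (8 animals). In other cells these values were 0, 0 and 50 (6 animals), and in ADCYAP1-high cells they were 50, 74.5 and 90.5 (10 animals). The percentages of OSMR-high and ADCYAP1-high cells did not overlap between animals. The 10 CPM limit was set here, and the share of all genes with such percentages apart was not computed. Among ADCYAP1-high cells the level of ATP1B2 was graded rather than uniform: 26 cells were at 0, 8 below 3 CPM, 6 between 3 and 10 CPM, 12 between 10 and 30 CPM, 38 between 30 and 100 CPM, 36 between 100 and 300 CPM and 23 above 300 CPM. Among ADCYAP1-high cells, those nearest to the 10 CPM limit stood at 9.99 and 10.6 CPM.

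**Figure D1:**
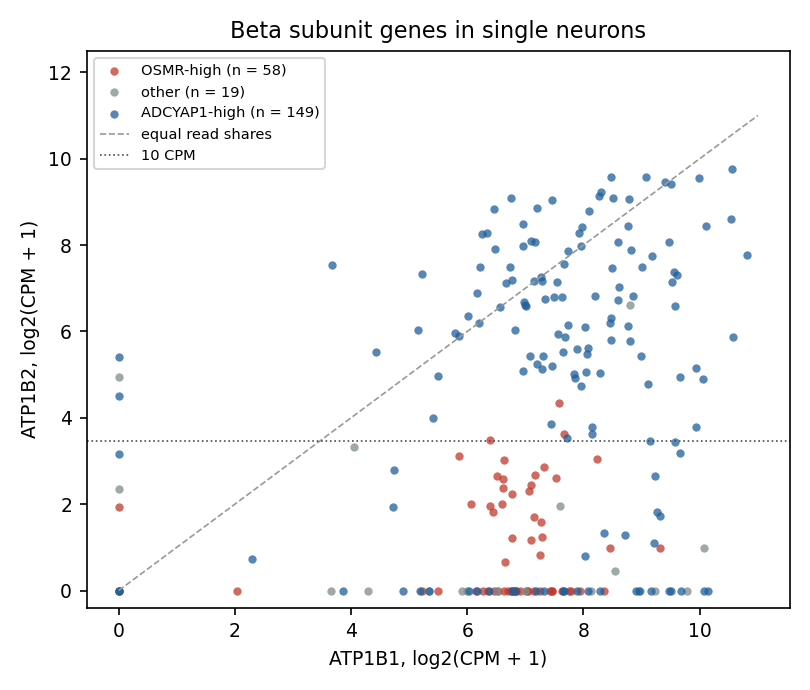
ATP1B2 (vertical) against ATP1B1 (horizontal), both as log2(CPM + 1), 1 point per neuron, with OSMR-high cells (n = 58), other cells (n = 19) and ADCYAP1-high cells (65.9% of all) by colour. The dotted line marks 10 CPM and the dashed line equal reads of both genes. ATP1B2 lies at or above 10 CPM in 3 OSMR-high cells, 2 other cells and 73.2% of ADCYAP1-high cells, whereas ATP1B1 overlaps between the classes.

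ATP1B1 was measured in nearly every neuron of each class. It was at 0 in 2 OSMR-high cells, 3 other cells and 5 ADCYAP1-high cells. Its median was 113.5 CPM in OSMR-high cells (quartiles 91.04 and 158.5), 89.8 CPM in other cells (quartiles 17.1 and 407) and 231 CPM in ADCYAP1-high cells (quartiles 111.8 and 463). The single-cell ranges overlapped broadly, with maxima of 636 CPM in OSMR-high, 1071 CPM in other and 1790 CPM in ADCYAP1-high cells.

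Classes were compared on counts summed per animal and class, which gave 8 OSMR-high, 6 other and 10 ADCYAP1-high sums of 2 or more cells. The lowest, median and highest ATP1B2 levels were -0.31, 1.46 and 2.12 log2 CPM in OSMR-high sums, -2.18, -0.06 and 5.65 in other sums, and 3.91, 6.87 and 7.95 in ADCYAP1-high sums. OSMR-high sums held between 1 and 69 ATP1B2 counts, other sums between 0 and 76, and the ADCYAP1-high sums up to 10925. Every ADCYAP1-high sum lay above every OSMR-high sum, as for 0.648% of all genes tested, against 0.627% of genes with every OSMR-high sum above every ADCYAP1-high sum. The other sums spanned both.

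ATP1B2 was lower in OSMR-high than in ADCYAP1-high neurons by a log2 fold change of -5.40 ± 0.89 (SE), with an adjusted p of 0.00124 by edgeR's quasi-likelihood test with Benjamini-Hochberg adjustment over 23920 genes. It was lower in 8 of 8 animals with both classes, as were 3.71% of all genes tested, by -7.35 to -2.71 log2 units. In this comparison 0.932% of genes passed, 96 of them higher and the rest lower in OSMR-high cells, and the median of all genes was -0.17. ATP1B2 was also lower in other than in ADCYAP1-high neurons, by -5.68 ± 1.21 (SE; adjusted p = 0.0111 by edgeR's quasi-likelihood test), in 6 of 6 animals, where 726 genes passed (3.04%) and the median of all genes was -0.52. The 2 other sums without an ATP1B2 read enter that fold through the fitted model, so it is not a bound. Between OSMR-high and other neurons ATP1B2 gave 0.28 ± 1.15 (SE; adjusted p = 0.926 by edgeR's quasi-likelihood test), and -0.10 with median-ratio size factors, against 315 genes passed (1.32%) and a median of 0.36.

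The lowest, median and highest ATP1B1 levels were 6.10, 7.13 and 7.71 log2 CPM in OSMR-high sums, 5.36, 8.13 and 9.65 in other sums, and 7.85, 8.43 and 9.67 in ADCYAP1-high sums. OSMR-high and ADCYAP1-high sums did not overlap, as for 0.648% of genes in this direction, and ATP1B1 was lower in OSMR-high cells in 8 of 8 animals, again against 3.71% of genes, by -2.39 to -0.85 log2 units. In the fit of all 3 classes the log2 fold change was -1.58 ± 0.45 (SE) with an adjusted p of 0.106 by edgeR's quasi-likelihood test, which missed the 0.05 threshold. Without the animal as a block it was -1.51 (adjusted p = 0.0396 by edgeR's quasi-likelihood test). Without the sums of other cells, an alternative chosen after seeing the data, ATP1B1 gave -1.61 ± 0.19 (adjusted p = 2.13e-05 by edgeR's quasi-likelihood test), and 1722 genes passed in that fit. ATP1B1 gave -0.45 ± 0.51 (SE; adjusted p = 0.649) in other against ADCYAP1-high cells and -1.14 ± 0.54 (adjusted p = 0.286) in OSMR-high against other cells by edgeR's quasi-likelihood test.

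**Figure D2:**
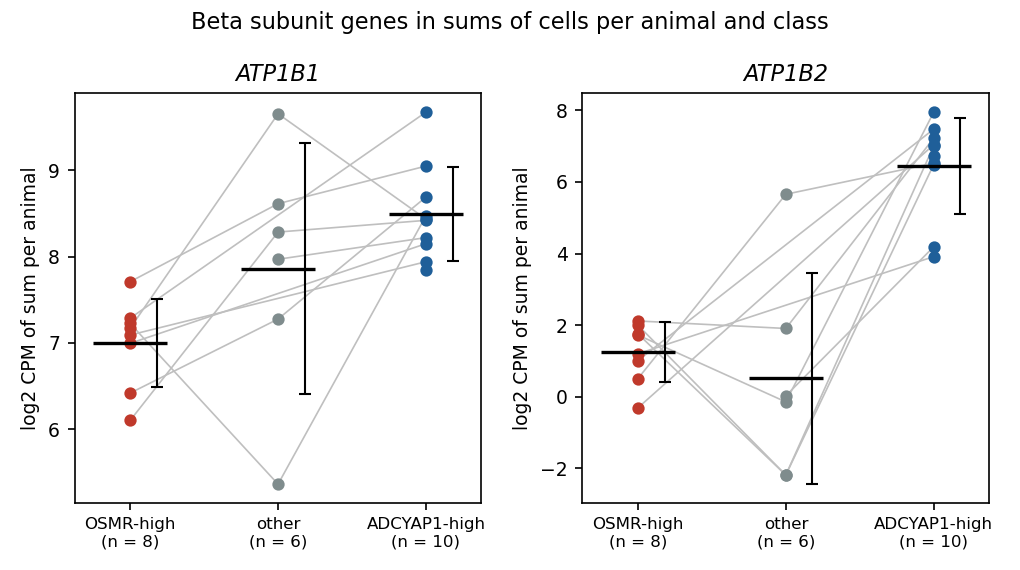
Level in log2 CPM (vertical) of ATP1B1 and ATP1B2 in counts summed per animal for OSMR-high, other and ADCYAP1-high cells, 1 point per animal, lines joining the sums of 1 animal, with mean (bar) and SD. ATP1B2 averages 1.25 ± 0.83 in OSMR-high sums (n = 8), 0.51 ± 2.95 in other sums (n = 6) and 6.45 ± 1.34 in ADCYAP1-high sums (n = 10). ATP1B1 averages 7.0 ± 0.51, 7.86 ± 1.45 and 8.49 ± 0.54 in the same classes.

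Because ATP1B2 is also a glial transcript, glial, macrophage and depth measures are given beside it. FABP7 and SOX10 were the genes used here to mark satellite glia, and whether they mark these glia alone was not tested. In ADCYAP1-high cells with both FABP7 and SOX10 at 0, ATP1B2 reached 10 CPM in 49 of 74 cells (66.2%, median 62.2 CPM). In ADCYAP1-high cells with reads of either gene it did so in 60 of 75 cells (80%; median 47.9 CPM), and in OSMR-high cells with reads of either gene in 2 of 36 (5.56%). In cells with both genes at 0 the OSMR-high against ADCYAP1-high fold of ATP1B2 was -6.81 ± 0.83 (SE; adjusted p = 0.000233 by edgeR's quasi-likelihood test), and that of ATP1B1 was -1.39 ± 0.32 (adjusted p = 0.0333). This restriction was chosen after seeing the data. The summed satellite-glia markers had a median of 75.98 CPM (0.682 to 7883 CPM) in OSMR-high cells and 74.8 CPM (0 to 9590 CPM) in ADCYAP1-high cells. The summed macrophage markers had medians of 21.5 CPM (0 to 3228 CPM) in OSMR-high cells and 63.7 CPM (0 to 5640 CPM) in ADCYAP1-high cells. Of the 9 macrophage genes, CD68 had medians of 2.14 CPM in OSMR-high and 25.4 CPM in ADCYAP1-high cells. CTSS went the other way, with 5.28 and 3.62 CPM, and each of the rest had a median of 0 in both classes. The Schwann-cell sum had a median of 1005 CPM in OSMR-high cells and 496 CPM in ADCYAP1-high cells, and the median total was 820033 counts in OSMR-high cells and 727901 in ADCYAP1-high cells.

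Within ADCYAP1-high cells, those at or above 10 CPM of ATP1B2 had a median of 13876 measured genes, against 10836 in those below 10 CPM, with median totals of 731271 and 690499 counts. The summed satellite-glia markers had a median of 87.03 CPM (0 to 9590 CPM) in the cells at or above 10 CPM and 56.7 CPM (2.48 to 2133 CPM) in those below. The macrophage sum had a median of 80.6 CPM (0 to 5640 CPM) in the cells at or above 10 CPM and 16.6 CPM (0 to 5571 CPM) in those below. The Schwann-cell sum had a median of 543 CPM (53.4 to 1609 CPM) in the cells at or above 10 CPM and 296 CPM (0 to 1433 CPM) in those below. Among cells at or above 10 CPM, FABP7 was at 0 in 66.97%, SOX10 in 57.8% and the macrophage gene C1QC in 77.98%, against 82.5%, 65% and 77.5% of the cells below. The part of these measures in the spread of ATP1B2 within ADCYAP1-high cells was not tested. ADCYAP1-high cells with at least 50 CPM of TRPM8, the cold receptor, had ATP1B2 at or above 10 CPM in 23 of 27 (85.2%), against 70.5% of those with less TRPM8.

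The share of ATP1B2 in the summed reads of ATP1B1 and ATP1B2 describes how the measured beta subunits were used. Averaged over cells and then animals it was 2.95 ± 4.05% in OSMR-high cells (SD, n = 8 animals), 19.8 ± 23.8% in other cells (n = 6) and 27.6 ± 15.5% in ADCYAP1-high cells (n = 10). From summed counts the shares were 1.89 ± 0.99% in OSMR-high, 3.73 ± 5.89% in other and 23.97 ± 12.3% in ADCYAP1-high cells. ADCYAP1-high animals ranged from 1.69 to 57.6% in the average over cells. ATP1B2 held more reads than ATP1B1 in 1 of 58 OSMR-high, 2 of 19 other and 42 ADCYAP1-high cells (28.2%). These are shares of reads and not of molecules, since transcript lengths were not used here, and shares were not tested.

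Within animals, ATP1B1 and ATP1B2 were weakly correlated across cells, with a mean Spearman rho of 0.242 (9 animals, positive in 8), and 0.124 in ADCYAP1-high cells alone (8 animals). Over all cells, the mean rho with the number of measured genes was 0.204 for ATP1B1 and 0.328 for ATP1B2. With the total counts of the cell it was 0.244 for ATP1B1 and 0.243 for ATP1B2. The part of these measures in the correlation of the 2 genes was not tested. These correlations are descriptions and carry no test.

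Among 3495 genes compared with ATP1B1 over all cells, the 5 with the highest mean rho included FAIM2 (0.490), GYG1 (0.468), RTN1 (0.441) and SYN2 (0.416). In ADCYAP1-high cells the 5 highest included SPOCK2 (0.476), CPE (0.476), SYT1 (0.468) and B4GAT1 (0.444). FAIM2 is an inhibitor of Fas-induced cell death, SYN2 a synaptic vesicle protein, SYT1 the calcium sensor of transmitter release and CPE a neuropeptide-processing enzyme. For ATP1B2 over all cells the genes were SELENOM (0.607), FAIM2 (0.576), TSPAN7 (0.543), ADCYAP1 (0.517) and PCDH9 (0.507), of which ADCYAP1 was used to make the classes. In ADCYAP1-high cells they were SDF4 (0.523), COMTD1 (0.499), TSPAN7 (0.498), SLC38A1 (0.481) and CRELD1 (0.468).

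Other genes that use or complement the sodium gradient were read from fixed lists, by edgeR's quasi-likelihood test over all genes. Of 7 FXYD regulators of the pump, 1 was identified and 0 could be tested. Of 4 NKAIN genes, which encode proteins that bind beta subunits, 3 were identified and 2 tested, with 0 passing by edgeR. Their median log2 fold changes were 0.36 for OSMR-high against ADCYAP1-high, -0.57 for other against ADCYAP1-high and 0.93 for OSMR-high against other cells, against -0.17, -0.52 and 0.36 over all genes. NKAIN2 was called by DESeq2 in other against ADCYAP1-high cells (-2.17) and in OSMR-high against other cells (1.96).

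Of 7 calcium pumps, which clear calcium from the cytosol, 6 were tested, with medians of -1.25 for OSMR-high against ADCYAP1-high, -0.93 for other against ADCYAP1-high and -0.57 for OSMR-high against other cells. ATP2B4, a plasma-membrane calcium pump, was lower in other than in ADCYAP1-high cells by -2.54 ± 0.56 (SE; adjusted p = 0.0137 by edgeR's quasi-likelihood test). That call was lost without animal 4 (-2.39, adjusted p = 0.0507) and in cells with FABP7 and SOX10 at 0 (-1.85, adjusted p = 0.120, chosen after seeing the data), both by edgeR's quasi-likelihood test. In either comparison with OSMR-high cells 0 passed by edgeR and 2 had an unadjusted p under 0.05, and DESeq2 called ATP2B3 and ATP2B4 in both. Of 10 carriers driven by the sodium gradient, all tested, the medians were 0.04, -0.19 and 0.34 in the same order of comparisons. SLC8A1 was the gene of this list that passed. SLC8A1, a sodium-calcium exchanger that uses the gradient to remove calcium, was higher in OSMR-high than in ADCYAP1-high cells by 4.25 ± 0.72 (SE; adjusted p = 0.00169) and than in other cells by 3.27 ± 0.80 (adjusted p = 0.0387), by edgeR's quasi-likelihood test. The call against other cells was lost in 7 of 10 fits that left out 1 animal, with folds of 2.84 to 3.63.

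Time in culture was compared on sums per animal and day. ATP1B1 averaged 8.07 ± 0.69 log2 CPM at 1 day (SD, n = 9 animals), 8.15 ± 0.38 at 2 days (n = 8) and 8.63 ± 0.35 at 3 days (n = 3), and ATP1B2 averaged 5.91 ± 1.64, 6.0 ± 0.94 and 5.37 ± 2.71 at these days. The ranges over animals overlapped between the days for both genes. At 2 days against 1 day ATP1B1 gave 0.14 ± 0.30 and ATP1B2 -0.46 ± 0.67 (SE; adjusted p = 1 for each by edgeR's quasi-likelihood test), and neither moved one way in all 7 paired animals. ATP1B2 at 2 days was -1.18 ± 0.41 in ADCYAP1-high cells alone (adjusted p = 1 by edgeR's quasi-likelihood test), -1.07 without cells with macrophage markers at 100 CPM, an alternative chosen after seeing the data, and -1.0 to -0.18 leaving out 1 animal, and passed in none of these. In that comparison 0 of 23122 genes passed by edgeR (0%), 839 had an unadjusted p under 0.05, and DESeq2 called 70. At 3 days against 1 day ATP1B1 gave 0.52 ± 0.43 (adjusted p = 0.641) and ATP1B2 -0.49 ± 1.08 (adjusted p = 0.883) by edgeR's quasi-likelihood test, in 3 animals, against 1 gene passed (0.00432%), 2726 unadjusted and 750 by DESeq2. The cells at or above 10 CPM of ATP1B2 made up 54.8% at 1 day (68 cells), 47.4% at 2 days (37 of 78 cells) and 37.5% at 3 days (9 of 24 cells). These percentages pool cells of 10, 9 and 3 animals. At 3 days they were 0 of 6 cells at 11 weeks, 3 of 7 at 14 weeks and 6 of 11 at 18 weeks. Of those cells 2, 3 and 7 were ADCYAP1-high. The part of animal and class mix in these percentages was not tested.

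Age was examined at 1 day in culture over 9 animals, without the animal of 20 weeks, which had 2 cells at that day. ATP1B2 stood at 3.36 and 5.06 log2 CPM in the animals of 11 weeks, 3.92 at 12 weeks, 7.77 at 14 weeks, 6.64 and 7.17 at 15 weeks, 7.48 at 17 weeks, and 6.99 and 5.25 at 18 weeks. The 3 animals of 11 or 12 weeks were the lowest 3, but the share of all genes ordered in this way was not computed. At that day ADCYAP1-high cells made up 13 of 26 cells at 11 weeks, 8 of 11 at 12 weeks, 5 of 10 at 14 weeks, 30 of 38 at 15 weeks, 17 of 23 at 17 weeks and 10 of 14 at 18 weeks, and the part of this mix in the levels by age was not tested beyond the fit in ADCYAP1-high cells alone. The slope was 0.35 ± 0.17 log2 units per week (SE; unadjusted p = 0.0530, adjusted p = 0.813 by edgeR's quasi-likelihood test), and did not pass. In ADCYAP1-high cells alone, a restriction chosen after seeing the data, it was 0.26 ± 0.18 (SE; adjusted p = 0.891 by edgeR's quasi-likelihood test). ATP1B1 gave -0.07 ± 0.08 per week (adjusted p = 0.958 by edgeR's quasi-likelihood test). By edgeR 0 of 19731 genes passed (0%), 1224 had an unadjusted p under 0.05, and DESeq2 called 65.

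**Figure D3:**
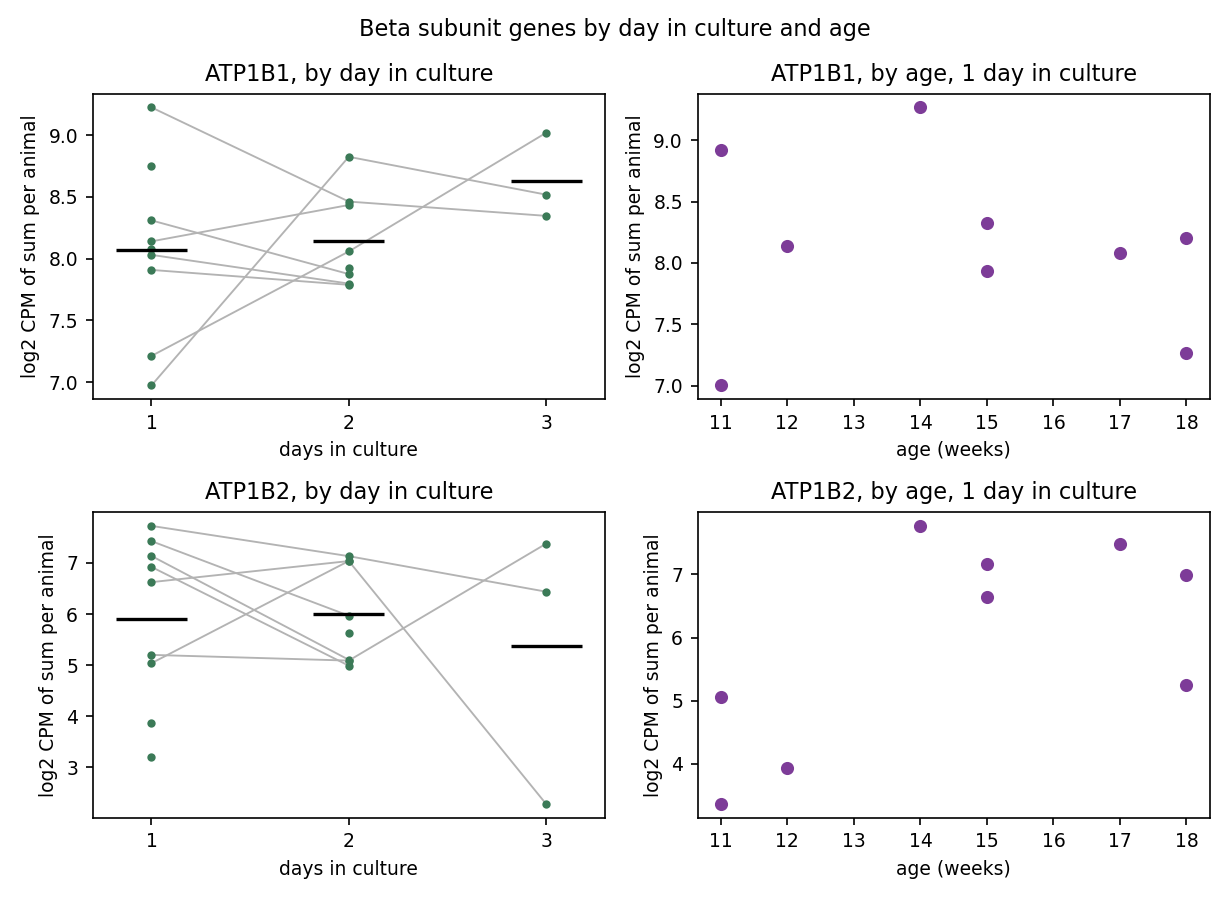
Levels of ATP1B1 and ATP1B2 in log2 CPM (vertical) in counts summed per animal, against days in culture (1, 2 and 3 days) and against age in weeks at 1 day in culture, 1 point per animal. Lines join the days of 1 animal and bars are means. Days overlap for both genes, and the ATP1B2 points of 11 and 12 weeks (3.36, 5.06 and 3.92) lie below those of later ages, of which the lowest is 5.25 at 18 weeks. The share of all genes ordered in this way was not computed, and the age slope did not pass.

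Recorded values were compared between cells at or above 10 CPM and below 10 CPM of ATP1B2, and between cells above and not above the median of ATP1B1 in their animal, as differences of means within each animal. The parameters were RMP, the resting membrane potential, cslow, the amplifier's slow capacitance reading, which grows with membrane area, Min_AHP, the low point of the afterhyperpolarisation, X100Hz, a response to stimulation at 100 Hz, and the columns that begin with ADS, for a train of 75 pulses. The deposited table states no units for them. Over 376 parameters and both genes, 0 of 752 pairs passed the 0.05 threshold by a two-sided exact test that flips the signs of the animals' differences, with Benjamini-Hochberg adjustment (smallest adjusted p = 0.305), and 79 had an unadjusted p under 0.05, 77 of them with ATP1B2. With 752 pairs, 1 pair alone could not pass even at the smallest exact sign-flip p that 10 animals allow (0.00195). The count of 0 therefore does not show that the recorded values were unrelated to the genes. Of the 77 pairs with ATP1B2, 75 were the ADS_RT_ABS columns of the pulse train, which are not independent. The count of 79 was 2 without animal 4, 6, 7, 9 or 10 and 16 without animal 5. It was 15 at an ATP1B2 limit of 3 CPM, 16 at 1 day and 1 without cells with macrophage markers at 100 CPM. The 75 ADS_RT_ABS pairs came from animals 4, 5, 6, 7, 9 and 10, at the smallest exact p that 6 animals allow (0.0313). With 5 animals the exact p cannot fall under 0.05, so these pairs had to leave the count without any 1 of them. The same holds without the macrophage-marker cells, where 5 animals remained. These falls therefore do not show that the difference was lost. Leaving out 1 animal, ADS_RT_ABS1 differed by -1.25 to -0.88.

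Over all cells, cslow averaged 64.9 ± 14.7 in cells at or above 10 CPM of ATP1B2 and 86.99 ± 13.2 in cells below (SD, n = 9 animals). It was lower in 8 of 9 animals, by a mean of -22.1 ± 15.7, with p = 0.00781 by the two-sided exact sign-flip test (the smallest that 9 animals allow is 0.00391; adjusted p = 0.305). X100Hz averaged 7.10 ± 2.09 in cells at or above 10 CPM and 5.66 ± 1.12 in cells below, and was higher in 8 of 9 animals (exact p = 0.0195). ADS_RT_ABS1, the first of 75 such columns, averaged 3.22 ± 0.20 in cells at or above 10 CPM and 4.32 ± 0.79 in cells below, and was lower in 6 of 6 animals (exact p = 0.0313, the smallest that 6 animals allow). All 75 columns of this kind were lower, by -1.54 to -1.09. RMP differed by 3.00 ± 4.43 (n = 6 animals, exact p = 0.188) and Min_AHP by -0.80 ± 2.76 (n = 9, exact p = 0.438). Leaving out 75 cells with macrophage markers at 100 CPM, chosen after seeing the data, gave cslow -14.4 (lower in 6 of 7 animals), ADS_RT_ABS1 -0.95 (5 of 5 animals), X100Hz -0.26 and RMP -0.60, so the last 2 changed sign.

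The split over all cells was largely a split of the classes. Of the cells at or above 10 CPM, 2.63% were OSMR-high, 1.75% other and 95.6% ADCYAP1-high, and of the cells below it 49.1% were OSMR-high, 15.2% other and 35.7% ADCYAP1-high. Within ADCYAP1-high cells cslow averaged 61.9 in cells at or above 10 CPM of ATP1B2 and 62.05 in cells below, a difference of -0.11 ± 16.9 (SD, n = 9 animals, higher in 3; exact p = 0.988). Under other settings that difference lay between -14.2 (cells at 1 day) and 9.46 (without cells with macrophage markers). X100Hz differed by -1.42 ± 2.71 (n = 9, exact p = 0.191), ADS_RT_ABS1 by 0.03 ± 0.57 (n = 6, exact p = 0.844) and RMP by -1.02 ± 4.75 (n = 8, exact p = 0.586). None of these p-values shows that the cells were alike.

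**Figure D4:**
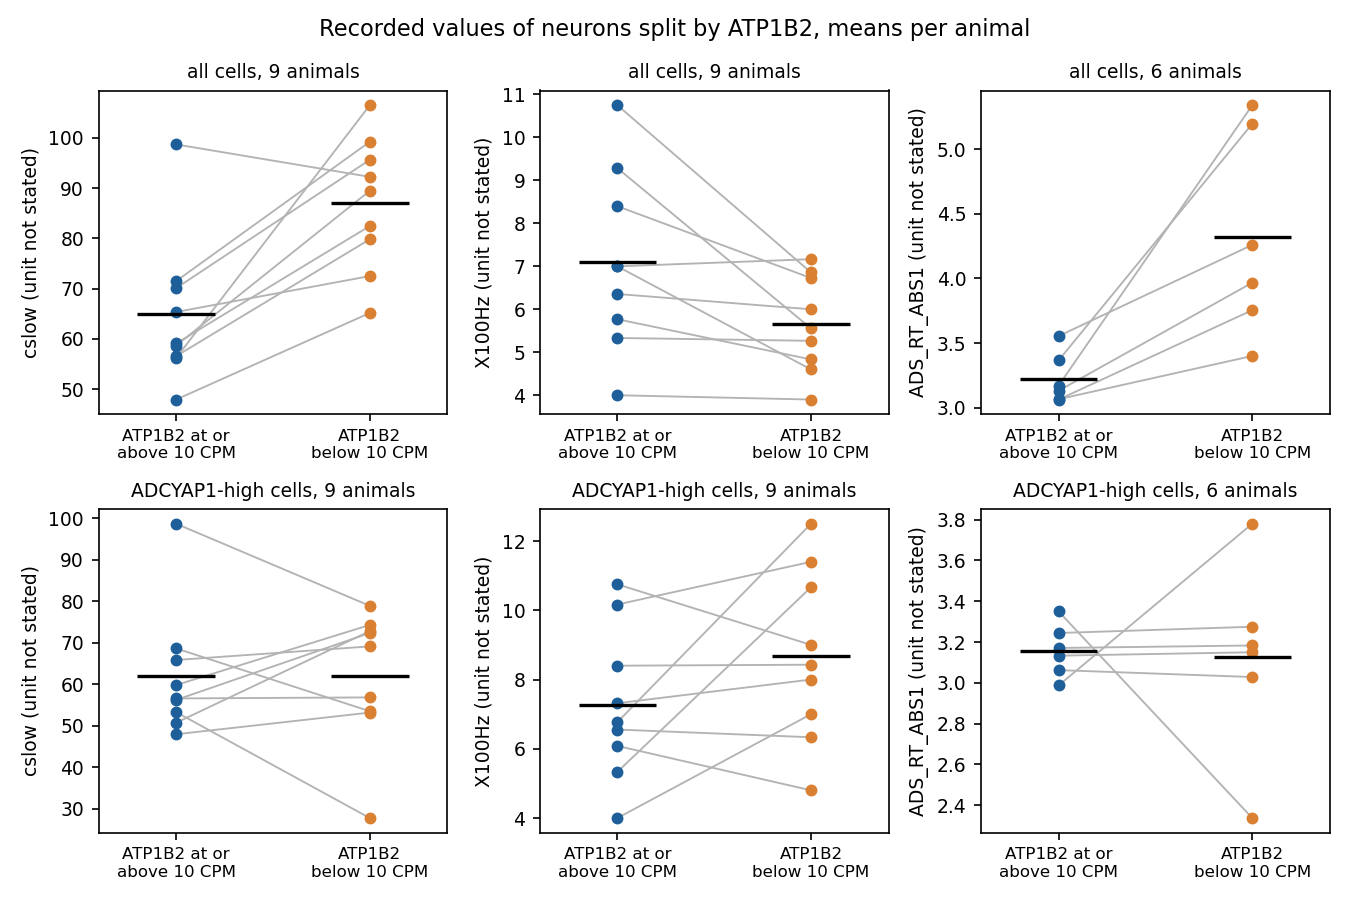
Means per animal of cslow, X100Hz and ADS_RT_ABS1 (vertical) in cells at or above 10 CPM of ATP1B2 (left in each pair) and below 10 CPM (right), joined by animal, with the mean over animals as a bar, over all cells (upper panels) and in ADCYAP1-high cells only (lower panels). The deposited units are not stated. For cslow the cells at or above 10 CPM are lower in 8 of 9 animals over all cells, and in ADCYAP1-high cells the mean difference is -0.11.

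For ATP1B1 over all cells, RMP averaged -58.3 in cells above the median of ATP1B1 and -56.4 in cells not above it, a difference of -1.87 ± 3.35 (SD, n = 10 animals, lower in 6; exact p = 0.115), and cslow differed by 0.71 ± 15.2. In ADCYAP1-high cells RMP averaged -57.4 ± 3.11 in cells above the median and -54.0 ± 2.36 in cells not above it. It was lower in 8 of 9 animals, by a mean of -3.45 ± 2.97 and a range of -7.85 to 2.10, with p = 0.0117 by the two-sided exact sign-flip test. The adjusted p was 0.999 over 752 pairs, of which 0 passed and 12 had an unadjusted p under 0.05, and the difference was 1.26 when cells at 1 day alone were used. Here too, 1 pair alone could not pass over that many pairs. The mean within-animal rho of ATP1B1 with RMP in ADCYAP1-high cells was -0.189 (6 animals, negative in 4), and with cslow 0.225 (8 animals, positive in 7).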

How the data were processed

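Per the file headers and values, the authors deposited 1 table of estimated counts per gene and cell, 52.14% of whose values above 0 are not whole, and 1 table of recorded values per cell in units not stated (used as deposited; 43 of its 269 lines belong to no cell analysed here). Bcl2fastq 2.20 is named in the submitters' processing notes; aligner, counting tool, genome build and annotation: not given in the sources used here. Smart-Seq2 does not mark strand. CPM was computed from the estimated counts here. For tests, the estimated counts were rounded after summing per animal and class (at least 2 cells), or by animal and culture day (3 cells or more), and fitted with edgeR 4.0.16 in R 4.3.3 (TMM, filterByExpr, quasi-likelihood test, Benjamini-Hochberg adjustment over all genes tested, threshold 0.05), with the animal as a block in class and day comparisons, since the sums paired come from the same animal. Class, day and age sums held 673015 to 45524996, 2814929 to 42958468 and 5410372 to 25457327 counts.

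DESeq2 1.42.0, median-ratio size factors, no filter, no block, other class limits and leaving out each animal were alternatives. Recorded values were compared by a two-sided exact sign-flip test of animal differences (scipy 1.17.1, Python 3.11.15), in animals with at least 3 cells on each side (2 within ADCYAP1-high cells). On simulated data, 23.5% of genes changed 4-fold were recovered in the class comparison (22801 genes), 93% in the day comparison (21815 genes) and 40.5% in the age comparison (19167 genes). Named genes were the members, list genes that passed a class comparison, and the 5 genes most like each member: a mean log2(CPM + 1) of at least 4 and the highest mean rho, positive in every animal with at least 8 cells. Members and lists were chosen with earlier results of these data known. Cells were picked singly, so no doublet caller was run. Some genes of these lists, and of those most like a member, are not reported here.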

Additional observations from a re-analysis of the deposited data

How the results depend on the processing

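Chosen after seeing the data were the fits without the sums of other cells, without the 75 cells with macrophage markers, within cells with FABP7 and SOX10 at 0, and within ADCYAP1-high cells for age. The ATP1B2 calls against ADCYAP1-high cells kept their direction and passed under every alternative run: -6.81 to -5.19 for OSMR-high cells (-5.72 to -5.17 leaving out 1 animal) and -9.13 to -3.62 for other cells (-7.36 to -4.73). ATP1B1 in OSMR-high against ADCYAP1-high cells also passed with DESeq2 (-1.56), without the replicate block of the animal (-1.51), with at least 4 cells a sum (-1.64), without other cells (-1.61), with FABP7 and SOX10 at 0 (-1.39) and without animal 3 or 5 (-1.69 to -1.47 leaving out 1 animal). ATP1B1 in other against ADCYAP1-high cells was 0.025 with FABP7 and SOX10 at 0; in OSMR-high against other cells it passed with DESeq2 (-1.32) and without the block (-1.29) and was 2.77 at 1 day. ATP1B2 in OSMR-high against other cells, which passed in none of these, was -0.10 with size factors, -0.012 with DESeq2, -1.84 without the block, -1.40 at a class limit of 100 CPM, -0.31 at 1 day and -0.54 to 2.01 leaving out 1 animal, and it was 1.52 at 20 CPM and without macrophage-marker cells, 2.32 with FABP7 and SOX10 at 0 and 3.37 with at least 4 cells a sum (adjusted p = 0.0837 by edgeR's quasi-likelihood test).

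Genes called in OSMR-high against ADCYAP1-high cells made up 1.58% of those tested without a filter, 2.27% with DESeq2, 1.55% without the block, 1.75% with 4 cells a sum, 7.23% without other cells, 1.49% with FABP7 and SOX10 at 0, and 0.497% (without animal 9) to 1.26% leaving out 1 animal. In other against ADCYAP1-high cells they made up 4.64% without a filter, 13% with DESeq2 (1026 higher, 2880 lower), 16.4% without the block (1801 higher, 1309 lower), 12.9% and 1.22% at class limits of 20 and 100 CPM, 28.3% at 1 day, 1.15% with FABP7 and SOX10 at 0, and 1.32% (without animal 5) to 7.09% (without animal 10) leaving out 1 animal. In OSMR-high against other cells they made up 2.59% without a filter, 9.2% with DESeq2 (1812 higher, 953 lower), 11% without the block, 8.33% and 0.337% at class limits of 20 and 100 CPM, 26.2% at 1 day, 2.57% with 4 cells a sum, 0.665% with FABP7 and SOX10 at 0, and 0.32% (without animal 7) to 3.7% (without animal 10) leaving out 1 animal. The cause was not tested. With DESeq2 0.233% passed at 2 days, 2.49% at 3 days and 0.221% with age. At 3 days 0.00998% passed without a filter, 0.197% without the block and 0% in ADCYAP1-high cells, and leaving out 1 animal gave 0 to 0.00443% at 2 days and 0 to 0.00442% at 3 days.

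At 2 days ATP1B1 was -0.041 without the block and -0.15 to 0.37 leaving out 1 animal; at 3 days ATP1B1 was -0.064 to 1.11 and ATP1B2 -2.53 to 0.42, and 0.027 without macrophage-marker cells. Without those cells, differences by ATP1B2 were -0.60 for RMP and -0.26 for X100Hz over all cells, and 9.46 for cslow in ADCYAP1-high cells, where cslow was -14.2 at 1 day, 2.63 by medians and -3.32 to 2.64 leaving out 1 animal. There X100Hz was 0.091 when split at the animal's median, and ADS_RT_ABS1 was -0.12 at 30 CPM, -0.11 at the median split and -0.16 to 0.20 leaving out 1 animal; RMP by ATP1B1 was 1.26 at 1 day. Shares per coding length were not run, since no lengths were used here, and animal 8 was not in the age fit. Other cells gave few reads per sum (0 to 76 for ATP1B2), which limits their comparisons.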

Other observations

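ATP2B3, a plasma-membrane calcium pump typical of neurons, missed the threshold in OSMR-high against ADCYAP1-high cells at -3.40 ± 0.88 (SE; adjusted p = 0.0639 by edgeR's quasi-likelihood test) and passed with DESeq2 (-3.44); it was chosen after its values were seen. Among the columns of the 75-pulse train, cells above the median of ATP1B1 had higher means than cells not above it in 74 of 74 slope columns and 74 of 74 peak columns over all cells, of which 2 peak columns had an unadjusted exact sign-flip p under 0.05 and 0 passed after adjustment. In ADCYAP1-high cells the same split gave higher means in 75 of 75 ADS_RT_ABS columns, by 0.16 to 0.39 (n = 7 animals), of which 1 had an unadjusted p under 0.05 by the exact test and 0 passed after adjustment. Over all cells it gave lower means in 75 of 75, by -0.25 to -0.02 (n = 7 animals), with 0 under an unadjusted exact p of 0.05. The 75 columns of a train come from the same sweeps and are not independent.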
